A study of Mus musculus with 36 samples.

Results

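The 1000 broadest domains of histone H3 lysine 4 trimethylation (H3K4me3) in control mouse hippocampus were followed into CK-p25 mice through 7 histone marks. The domains were chosen from the 2 control H3K4me3 peak lists: peaks with a deposited -log10 p of at least 5 were pooled over 2 and 6 weeks, those on autosomes within 1 kb of each other were merged, and the 1000 widest of the 54744 merged domains were kept. The choice used control H3K4me3 itself, so the width and H3K4me3 cover of these domains in controls are a description of the choice. The lists of CK-p25 mice and of the other marks were not used in it.

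Hippocampal tissue came from adult female mice aged 3 months. The groups were CK-p25 double transgenic mice at 2 and 6 weeks after p25 was switched on (written CKp25 below) and their control littermates at the same times (written CK). The labels give the genotype of the controls as CK and do not list their alleles. As background, p25 is a shortened form of p35 that activates the kinase Cdk5, and the Camk2a promoter drives it in forebrain excitatory neurons of this line. Each mark, genotype and time was represented by 1 peak list, called against a whole cell extract of the same genotype and time. The sources used here do not say how many animals went into a list. No test between genotypes was run: each genotype had 1 list at a time, and over both times an exact permutation test of 2 lists against 2 cannot give a p under 0.33. Differences between genotypes are given as values, and the difference between 2 and 6 weeks within a genotype is given beside them as the closest available measure of how far 2 lists of a mark differ.

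H3K4me3 sits at promoters that are active or poised, and most of its domains are short. A small class of broad domains extends over several kilobases, into the first part of the gene, and is known for lying at genes that define a cell type. H3K27 acetylation (H3K27ac) marks active promoters and enhancers, and H3K4 monomethylation (H3K4me1) marks enhancers and the flanks of promoters. H3K36me3 lies over the bodies of transcribed genes and H4K20me1 over the bodies of active genes, often near their start. H3K27me3 is laid down by Polycomb complexes at silent developmental genes, and H3K9me3 marks constitutive heterochromatin. Where H3K4me3 and H3K27me3 meet in one region, they can lie on the same nucleosomes or in different cells of the tissue.

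The 1000 domains ran from 7458 to 42971 bp, with a median of 9219.5 bp and quartiles of 8173.25 and 11381.5 bp. The median of all 54744 domains was 912 bp. They were 1.83% of the domains and held 11.996% of the bases in them, 10.5 Mb in all. Of these domains, 89 were at least 15 kb wide and 26 at least 20 kb. A domain was merged from a median of 7 pooled peaks and from at most 36. At the limit of the choice, the domains ranked 998, 999 and 1000 were 7459, 7458 and 7458 bp wide, and the first 3 left out were 7455, 7453 and 7450 bp wide. The next 1000 domains by width had a median of 6441 bp and a minimum of 5778 bp. They are the set nearest in width and are called the next 1000 below.

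The domains lay on all 19 autosomes. Chromosome 11 had 89 of them, 2.28% of its domains, and chromosome 2 had 84, 1.90% of its domains. Chromosome 12 had the smallest share, 35 domains or 1.47%. They were mostly apart: 59 lay within 10 kb of another and 166 within 50 kb, and the median distance to the nearest other was 494 kb. No annotation of the mouse build of these files (mm9) was used, so each domain is named by its position, 1-based, and none by a gene.

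The RNA libraries of the same study, 3 per group with 5029996 to 6450140 gene counts each, describe the tissue behind these lists. All 8 neuronal marker genes were detected in every group. Their summed level was 4017 to 4580 CPM (counts scaled to the gene total of the library) in CKp25 against 5310 to 5370 CPM in CK at 2 weeks, and 3017 to 3948 CPM in CKp25 against 5013 to 5451 CPM in CK at 6 weeks. Among these 8, Gad1 and Gad2, enzymes that make GABA in inhibitory neurons, did not follow the sum. Gad1 was at 216 to 242 CPM in CKp25 against 211 to 245 CPM in CK at 2 weeks, and at 235 to 297 CPM in CKp25 against 225 to 246 CPM in CK at 6 weeks. Gad2 was at 110.2 to 130.2 CPM in CKp25 against 114 to 131 CPM in CK at 2 weeks, and at 126 to 161 CPM in CKp25 against 124 to 127 CPM in CK at 6 weeks. The other 6 were lower in CKp25 in every library at both times. The 6 markers of hippocampal neurons summed to 477 to 536 CPM in CKp25 against 579 to 601 CPM in CK at 2 weeks, and to 297 to 365 CPM in CKp25 against 510 to 615 CPM in CK at 6 weeks. Of these 6, Prox1, Wfs1 and Bcl11b overlapped between genotypes at 2 weeks, and none did at 6 weeks. The 8 microglial markers summed to 887 to 1134 CPM in CKp25 against 221 to 242 CPM in CK at 2 weeks, and to 971 to 1282 CPM in CKp25 against 211 to 240 CPM in CK at 6 weeks. The 6 astrocyte markers summed to 7270 to 7918 CPM in CKp25 against 4860 to 5510 CPM in CK at 2 weeks, and to 9539 to 11941 CPM in CKp25 against 5175 to 5634 CPM in CK at 6 weeks. Slc1a2, the largest part of this sum, overlapped at 2 weeks, with 4154 to 4798 CPM in CKp25 against 3899 to 4535 CPM in CK. The other astrocyte markers did not overlap. The 4 genes of dividing cells summed to 239 to 387 CPM in CKp25 against 13.9 to 17.4 CPM in CK at 2 weeks, and to 68.4 to 93.0 CPM in CKp25 against 12.5 to 15.1 CPM in CK at 6 weeks. These 5 sums did not overlap between genotypes at either time. Nor did that of the 4 endothelial markers, at 123 to 128 CPM in CKp25 against 99.3 to 121 CPM in CK at 2 weeks. At 6 weeks the endothelial sum was 142 to 172 CPM in CKp25 against 95.5 to 107 CPM in CK. All of the 45 markers listed but Folr1, Kcne2 and Cdk1 had counts in every library. At least 1 library had no count of Folr1, Kcne2 or Cdk1 in CK at 2 weeks, and of Kcne2 in CK at 6 weeks. The sums for oligodendrocytes overlapped at 2 weeks but not at 6 weeks, with 3098 to 3813 CPM in CKp25 against 2016 to 2628 CPM in CK. The 4 choroid plexus markers set libraries of 1 group apart, with sums of 21.2 to 1205 CPM in CKp25 against 15.8 to 933 CPM in CK at 2 weeks, and of 13.5 to 1975 CPM in CKp25 against 33.3 to 2332 CPM in CK at 6 weeks. In whole tissue, fewer cells of a type and less of a mark per cell cannot be told apart, and the part of these shifts in the values below was not tested.

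H3K4me3 remained over nearly all of this territory in CKp25. The peaks covered 85.1% of the bases of the 1000 domains in CKp25 against 85.4% in CK at 2 weeks, and 86.4% in CKp25 against 88.2% in CK at 6 weeks. Every domain held H3K4me3 in all 4 lists. At least 50% of the bases were covered in 993 domains in CKp25 against 990 in CK at 2 weeks, and in 987 in CKp25 against 998 in CK at 6 weeks. The median difference in the covered share, CKp25 minus CK, was 0.0323 percentage points at 2 weeks and -0.957 points at 6 weeks. The middle 90% of domains ran from -11.98 to 10.4 points at 2 weeks and from -17.5 to 10.03 points at 6 weeks.

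**Figure D1:**
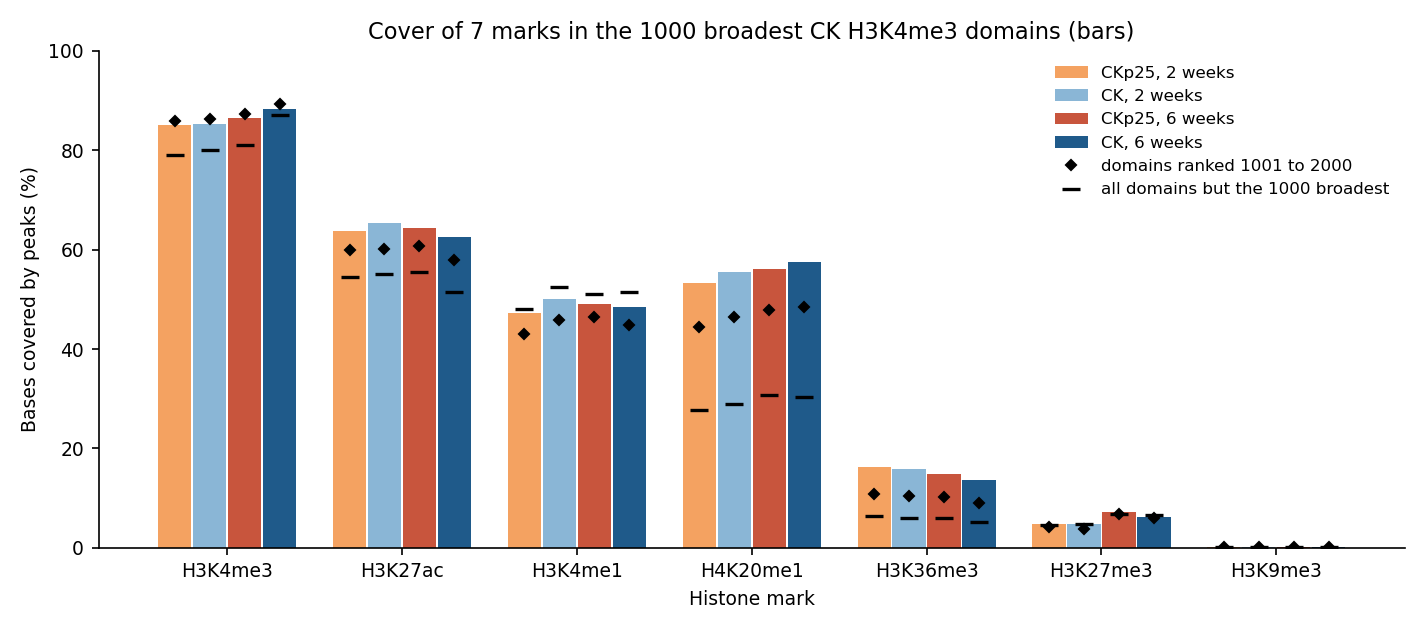
Share of bases covered by peaks (%, y axis) for each histone mark (x axis) in CKp25 and CK at 2 and 6 weeks, with 1 peak list per bar. Bars are the 1000 broadest domains, diamonds the next 1000 domains and dashes all domains but the 1000 broadest. H3K4me3 covered 85.1 to 88.2% of the 1000 domains in all 4 lists, and H3K9me3 at most 0.218%.

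Counts of domains lower and higher in CKp25 were nearly equal at 2 weeks and less so at 6 weeks. At 2 weeks 495 domains were lower in CKp25, 501 were higher and 4 were equal. At 6 weeks 559 were lower, 440 were higher and 1 was equal, beside 30543 lower and 17690 higher over all merged domains. The second split depended on the choice of domains, as given in the next paragraph. No domain had its H3K4me3 cover at most halved in CKp25 at 2 weeks, against 14.9% of all merged CK domains that held the mark, and 6 did at 6 weeks, against 18.2% of all. None had it doubled at 2 weeks (1.40% of all) or at 6 weeks (0.711% of all). The rule used CK cover, so nothing is read from these counts about the broad domains as a class. The broad domains and the whole are not matched on width, with medians of 9219.5 and 912 bp. Among the next 1000 domains, cover was halved in 2 at 2 weeks and in 6 at 6 weeks.

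To take the choice out of the control side, the 1000 widest domains were chosen from 1 CK list and compared between genotypes at the other time. Domains chosen from CK at 2 weeks were covered at 6 weeks over 90.5% of their bases in CKp25 against 91.0% in CK, with 474 domains lower in CKp25, 509 higher and 4 halved. Domains chosen from CK at 6 weeks were covered at 2 weeks over 88.1% of their bases in CKp25 against 87.2% in CK, with 413 lower, 577 higher and none halved. In the list that chose them, the covered shares were 92.5% and 92.3%. The excess of lower domains at 6 weeks, 56.0% of unequal domains with members chosen from both CK lists, was 48.2% with members chosen from CK at 2 weeks alone, below an even split.

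The differences between genotypes were of the size of those between times. H3K4me3 cover differed by at most 10 points between CKp25 and CK in 863 domains at 2 weeks and in 816 at 6 weeks. It differed by at most 10 points between 6 and 2 weeks in 814 domains within CKp25 and in 845 within CK. The median absolute difference was 3.63 and 4.42 points between genotypes at 2 and 6 weeks, 3.93 points between times in CKp25 and 4.31 points between times in CK. Across the 1000 domains, the genotype difference at 2 weeks and that at 6 weeks had a Spearman's rho of 0.12, where both use the CK lists that chose the domains.

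Width was measured in each H3K4me3 list by itself, as the widest domain that the list alone builds at a member. The CK lists built the members, so a CK span cannot exceed the width of its member. A CKp25 span can, and this limit favours wider spans in CKp25 by construction. The median span was 8525.5 bp in CKp25 against 8331.5 bp in CK at 2 weeks, and 8869.5 bp in CKp25 against 8669 bp in CK at 6 weeks. The median ratio of spans, CKp25 over CK, was 1.01 at both times. The ratio lay between 0.8 and 1.25 in 778 domains at 2 weeks and in 744 at 6 weeks. The span in CKp25 was at most 0.5 times that in CK in 14 domains at 2 weeks and in 24 at 6 weeks, and at least 2 times in 20 and in 15. At both times 313 domains were wider in CKp25 and 210 were narrower. The lists themselves differed in size: H3K4me3 peaks covered 76.9 Mb of the autosomes in CKp25 against 70.3 Mb in CK at 2 weeks, and 82.8 Mb in CKp25 against 76.0 Mb in CK at 6 weeks. The parts of list size and of the limit on CK spans were not tested.

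**Figure D2:**
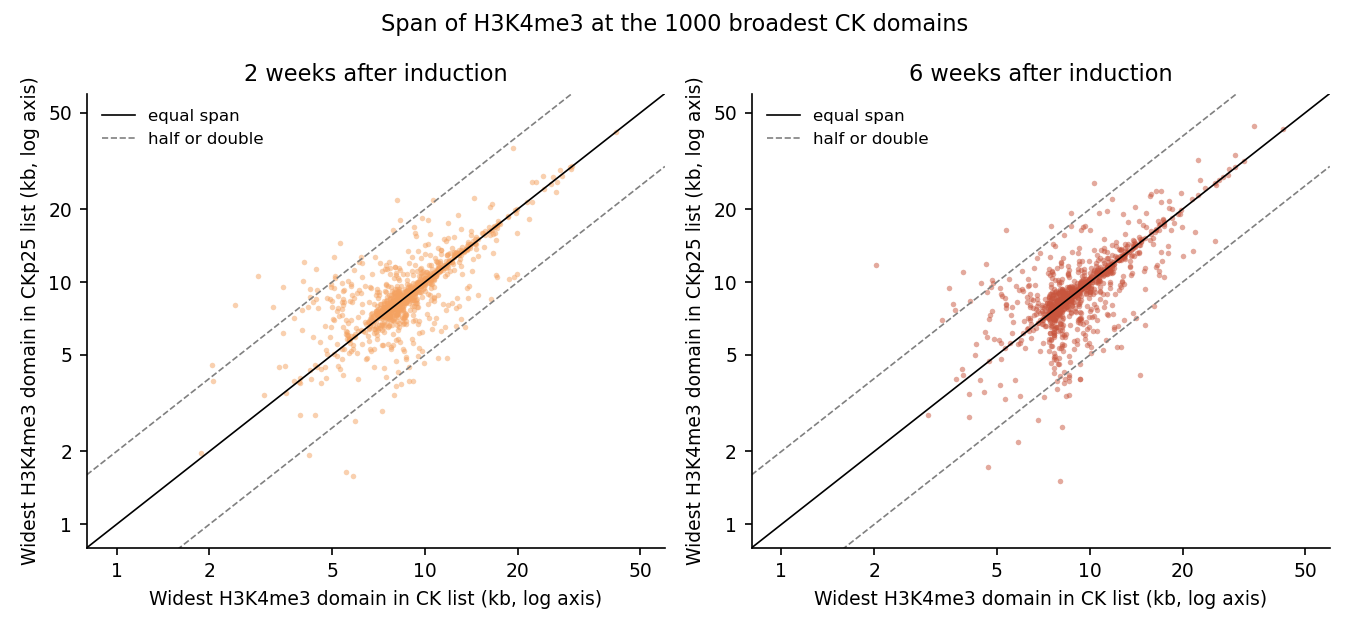
Span of the widest H3K4me3 domain built from each CKp25 list alone (kb, log y axis) against that built from the CK list of the same time (kb, log x axis), 1 point per domain. The solid line marks equal spans and the dashed lines a span of 0.5 or 2 times. A CK span cannot exceed the width of its domain, while a CKp25 span can. Most points lie near the solid line: the ratio was between 0.8 and 1.25 in 778 domains at 2 weeks and in 744 at 6 weeks.

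Large changes of width at both times were few. A span can change where a gap passes the 1 kb merging limit, with little change of cover. The span in CKp25 was at most 0.5 times that in CK at both times in 4 domains, and at least 2 times at both times in none. The 4 were chosen after their values were seen. At chr5:124611955-124620109, a domain of 8155 bp, H3K4me3 spanned 1588 bp in CKp25 against 5842 bp in CK at 2 weeks, and 2534 bp in CKp25 against 8108 bp in CK at 6 weeks. At chr5:147222013-147230222 it spanned 2671 bp in CKp25 against 5950 bp in CK at 2 weeks, and 2707 bp in CKp25 against 6780 bp in CK at 6 weeks. H3K4me3 cover there was 48.3% in CKp25 against 54.3% in CK at 2 weeks and 49.3% in CKp25 against 48.5% in CK at 6 weeks. At chr15:84866219-84875539 it spanned 3918 bp in CKp25 against 8858 bp in CK at 2 weeks, and 3985 bp in CKp25 against 9321 bp in CK at 6 weeks. In each of these the CKp25 spans of both times lay below both CK spans. At chr13:16108095-16116052 it spanned 3432 bp in CKp25 against 7958 bp in CK at 2 weeks, and 3365 bp in CKp25 against 7101 bp in CK at 6 weeks. H3K4me3 cover was lower in CKp25 at both times at all of the 4 but chr5:147222013-147230222.

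The 4 largest widenings, by the mean log2 ratio of spans over both times, follow. Their CK spans could not exceed the width of the domain and their CKp25 spans could, so the size of these widenings depends partly on the choice. At chr10:79598923-79609257, H3K4me3 spanned 18331 bp in CKp25 against 9806 bp in CK at 2 weeks, and 25527 bp in CKp25 against 10316 bp in CK at 6 weeks. At chr7:5002162-5016322 it spanned 14486 bp in CKp25 against 5312 bp in CK at 2 weeks, and 14046 bp in CKp25 against 7722 bp in CK at 6 weeks. At chr10:79727003-79734460 it spanned 12128 bp in CKp25 against 4049 bp in CK at 2 weeks, and 12703 bp in CKp25 against 7453 bp in CK at 6 weeks. In all 4 the span was wider in CKp25 at both times. At chr16:18584544-18592195 it spanned 7781 bp in CKp25 against 4510 bp in CK at 2 weeks, and 11043 bp in CKp25 against 3871 bp in CK at 6 weeks. H3K4me3 cover there was 69.2% in CKp25 against 69.4% in CK at 2 weeks and 84.9% in CKp25 against 72.4% in CK at 6 weeks. H3K27me3 covered 86.4 to 96.6% of this last domain in the 4 lists, and H3K27ac none of it. H3K4me3 cover was higher in CKp25 at both times at all of the 4 but this last domain. These too were named after their values were seen.

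The same rule applied to the 2 CKp25 lists gave 59664 merged domains, of which the 1000 widest ran from 7843 to 45918 bp. Of the 1000 CK domains, 815 (81.5%) met one of the 1000 CKp25 domains, and 812 (81.2%) of the CKp25 domains met one of CK. Every CK domain met some CKp25 domain of any width, and the reverse also held. The 188 CKp25 domains without a partner among the CK 1000 had a median width of 8900.5 bp in CKp25, against 5913 bp in CK, and 44 were less than 0.5 times as wide in CK. The 185 CK domains without a partner had a median width of 7184 bp in CKp25, against 7897 bp in CK, and 18 were less than 0.5 times as wide in CKp25. On both sides the genotype that chose the domains had the wider ones.

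The 10 widest domains kept their H3K4me3 in CKp25, with covers of 79.1 to 100% in all 4 lists. They differed widely in the other marks. The widest, chr17:10472449-10515419 (42971 bp, 36 pooled peaks), was covered by H3K4me3 over 80.9% in CKp25 against 87.9% in CK at 2 weeks and over 88.9% in CKp25 against 89.4% in CK at 6 weeks. It held little H3K27ac, 23.9% in CKp25 against 15.7% in CK at 2 weeks and 19.7% in CKp25 against 12.3% in CK at 6 weeks, and had H4K20me1 over 86.8 to 89.2%. The second, chr8:87281043-87315023 (33981 bp), was covered by H3K27ac over 93.9 to 96.1%. Its H4K20me1 cover was 83.7% in CKp25 against 69.0% in CK at 2 weeks and 86.2% in CKp25 against 73.2% in CK at 6 weeks, higher in CKp25 both times. Built from each list alone, this domain spanned 35853 bp in CKp25 against 19353 bp in CK at 2 weeks and 44135 bp in CKp25 against 33981 bp in CK at 6 weeks. The CK span could not pass 33981 bp, the width of the domain.

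The third, chr3:34535891-34567697 (31807 bp), was the only one of the 10 with H3K27me3 over most of its length. That cover was 63.4% in CKp25 against 69.6% in CK at 2 weeks and 59.1% in CKp25 against 79.2% in CK at 6 weeks. H3K27ac covered 60.8% of it in CKp25 against 62.5% in CK at 2 weeks and 65.6% in CKp25 against 56.4% in CK at 6 weeks, so both marks lay over most of the same region. The fourth, chr13:83852456-83882461 (30006 bp), was 1 unbroken peak in every list, with H3K4me3 over 98.7 to 100% and H3K27ac over 90.3 to 95.3%. H3K4me1 covered 9.58 to 15.7% of it.

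At the fifth, chr11:23972877-24002601 (29725 bp), H3K4me1 covered 16.0% in CKp25 against 27.9% in CK at 2 weeks and 10.2% in CKp25 against 35.7% in CK at 6 weeks. Its H3K27me3 cover was 7.43% in CKp25 against 2.82% in CK at 2 weeks and 19.6% in CKp25 against 15.4% in CK at 6 weeks. The sixth and seventh were chr12:50474230-50503881 (29652 bp), with H3K27ac over 74.6 to 81.3% and H4K20me1 over 21.9 to 25.5%, and chr18:69748598-69777885 (29288 bp), with H3K27ac over 77.8 to 80.7% and H4K20me1 over 74.9 to 82.5%. The eighth, chr15:85494080-85522063 (27984 bp), had H3K4me3 over 95.2 to 97.9% and H3K27ac over 90.9 to 92.3%.

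The ninth, chr18:61081411-61108650 (27240 bp), was lower in CKp25 in 5 marks at both times. Its H3K4me3 cover was 87.9% in CKp25 against 90.6% in CK at 2 weeks and 82.2% in CKp25 against 91.2% in CK at 6 weeks. Its H3K36me3 cover was 46.4% in CKp25 against 55.0% in CK at 2 weeks and 33.2% in CKp25 against 50.6% in CK at 6 weeks. At 6 weeks H3K4me3 spanned 14752 bp in CKp25 against 25389 bp in CK, while at 2 weeks the spans were 25953 bp in CKp25 and 26778 bp in CK. The tenth, chr2:44948350-44975440 (27091 bp), had H3K27ac over 82.1 to 86.6%.

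By the rule for named domains, the 3 with the largest fall and the 3 with the largest gain of H3K4me3 share were those with the largest mean difference over both times, among domains that moved the same way at both. The largest fall was at chr5:124611955-124620109, given above, where H3K4me3 covered 37.7% in CKp25 against 57.6% in CK at 2 weeks and 42.0% in CKp25 against 92.5% in CK at 6 weeks. H3K4me1 covered 91.9 to 96.8% and H4K20me1 96.7 to 98.2% of that domain in all 4 lists, and H3K27ac was 73.6% in CKp25 against 85.8% in CK at 2 weeks and 83.9% in CKp25 against 89.7% in CK at 6 weeks. At chr7:16725300-16736285 H3K4me3 covered 52.1% in CKp25 against 77.3% in CK at 2 weeks and 23.1% in CKp25 against 64.8% in CK at 6 weeks. There, at 6 weeks, H3K4me1 covered 29.9% in CKp25 against 59.5% in CK and H3K36me3 30.5% in CKp25 against 57.3% in CK. At chr2:26991184-26998912 H3K4me3 covered 58.4% in CKp25 against 73.9% in CK at 2 weeks and 56.5% in CKp25 against 97.9% in CK at 6 weeks. H4K20me1 covered 13.9% of it in CKp25 against 58.8% in CK at 6 weeks.

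The 3 largest gains were smaller, with means over both times of 17.8 to 20.5 points, against -35.2 to -28.5 points for the falls. At chr4:130347781-130356466 H3K4me3 covered 88.0% in CKp25 against 71.6% in CK at 2 weeks and 96.3% in CKp25 against 71.8% in CK at 6 weeks. H3K27ac was also higher there, 90.1% in CKp25 against 63.8% in CK at 2 weeks and 91.1% in CKp25 against 63.4% in CK at 6 weeks, which made it 1 of the 3 largest gains of that mark as well. At chr11:49056400-49065622 H3K4me3 covered 97.3% in CKp25 against 83.8% in CK at 2 weeks and 98.6% in CKp25 against 75.9% in CK at 6 weeks. At this domain H3K27ac covered 76.0% in CKp25 against 56.1% in CK at 2 weeks and 79.2% in CKp25 against 53.1% in CK at 6 weeks. At chr5:97425294-97434123 H3K4me3 covered 89.9% in CKp25 against 74.9% in CK at 2 weeks and 93.5% in CKp25 against 72.9% in CK at 6 weeks. The CKp25 values of both times lay above both CK values at these 3 domains.

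H3K27ac, the mark of active regulatory DNA, was present at nearly every broad domain in both genotypes. It covered 63.7% of the bases in CKp25 against 65.3% in CK at 2 weeks, and 64.4% in CKp25 against 62.4% in CK at 6 weeks. It was found in 995 domains in CKp25 against 993 in CK at 2 weeks and in 994 in CKp25 against 992 in CK at 6 weeks. It covered at least 50% of the bases in 697 domains in CKp25 against 724 in CK at 2 weeks, and in 700 in CKp25 against 683 in CK at 6 weeks. The next 1000 domains held less, 57.9 to 60.8% of their bases over the 4 lists, and all domains but the 1000 broadest 51.4 to 55.5%.

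The genotype difference of H3K27ac pointed to opposite sides at the 2 times. At 2 weeks 573 domains were lower in CKp25 and 423 higher, with a median difference of -1.25 points. At 6 weeks 426 were lower and 570 higher, with a median difference of 1.40 points. All merged domains turned the same way, with 19475 lower and 17183 higher at 2 weeks and 14876 lower and 21407 higher at 6 weeks. The sizes of the lists differed the same way: H3K27ac peaks covered 84.0 Mb of the autosomes in CKp25 against 87.5 Mb in CK at 2 weeks, and 88.1 Mb in CKp25 against 77.8 Mb in CK at 6 weeks, and with the same number of peaks taken from each list 47.1% of unequal domains were lower at 6 weeks, against 42.8%. The cover was halved in 6 of 993 domains at 2 weeks (14.6% of all domains with the mark) and in 8 of 992 at 6 weeks (13.2% of all). It was doubled in 5 domains at 2 weeks (2.77% of all) and in 22 at 6 weeks (4.37% of all). The next 1000 domains were close to the broad ones, with 11 and 14 halved and 4 and 17 doubled at 2 and 6 weeks. Between 6 and 2 weeks, 5 domains were halved and 9 doubled within CKp25, and 13 were halved and 2 doubled within CK.

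**Figure D3:**
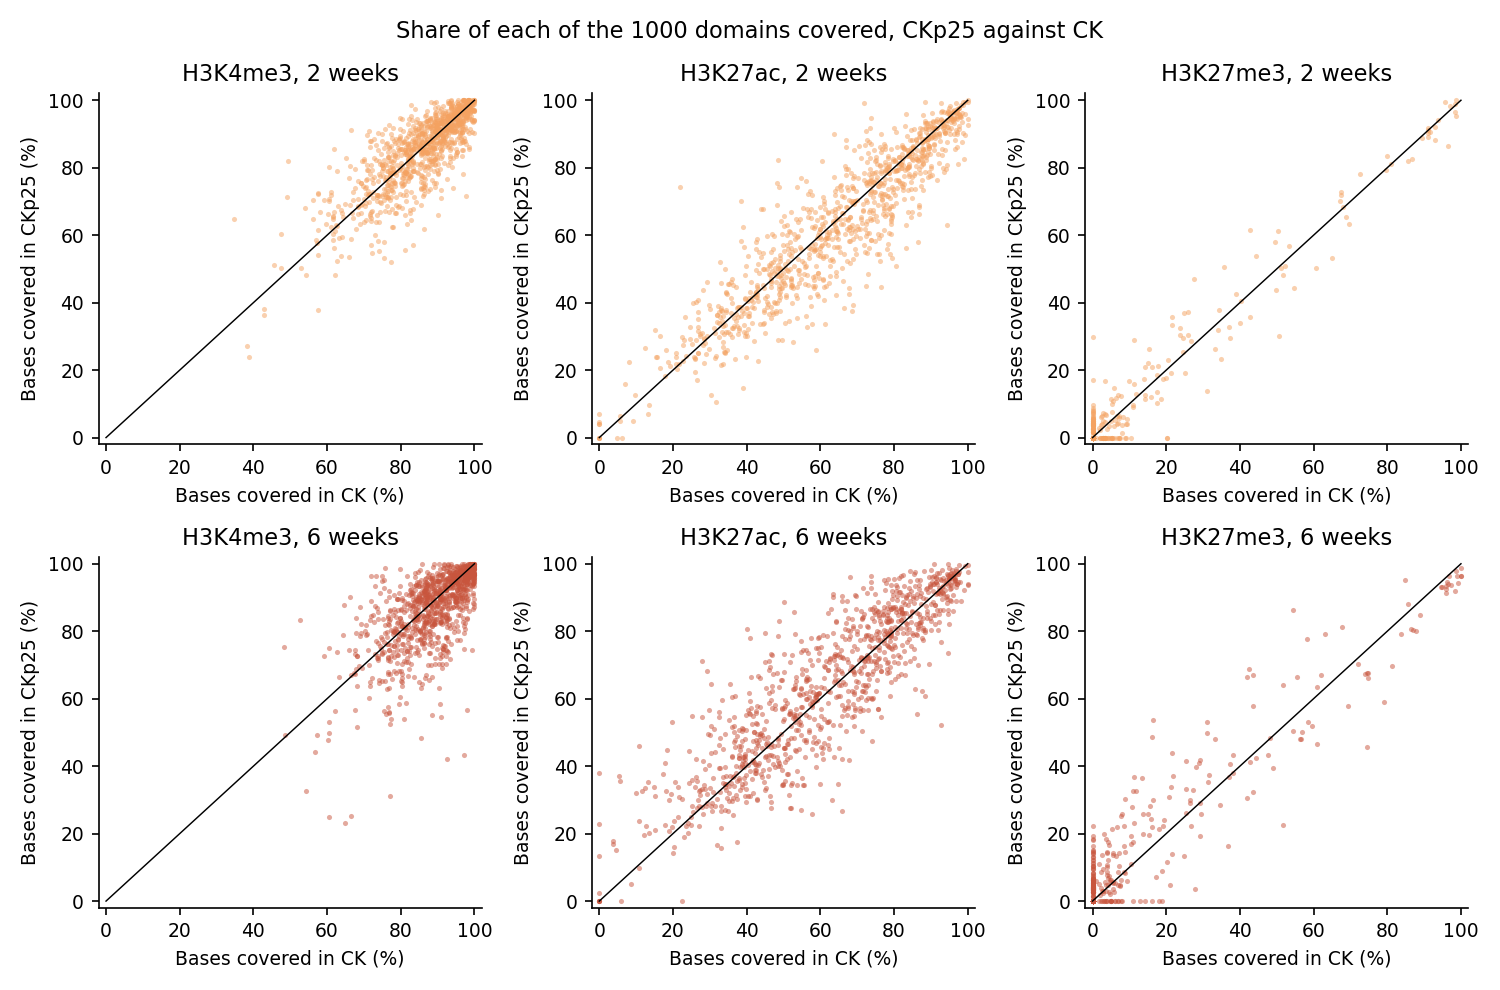
Share of each domain's bases covered in CKp25 (%, y axis) against CK (%, x axis) for H3K4me3, H3K27ac and H3K27me3 at 2 weeks (top) and 6 weeks (bottom), 1 point per domain, with the line of equality. Most H3K4me3 and H3K27ac points lie within 10 points of the line, and a column of H3K27me3 points at 0 in CK marks the domains covered in CKp25 alone, 47 at 2 weeks and 95 at 6 weeks.

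The largest falls of H3K27ac share were on 2 chromosomes. At chr4:150469765-150483642 (13878 bp) H3K27ac covered 39.4% in CKp25 against 68.9% in CK at 2 weeks and 34.6% in CKp25 against 59.8% in CK at 6 weeks. At chr4:151847841-151855576 it covered 62.9% in CKp25 against 94.4% in CK at 2 weeks and 63.0% in CKp25 against 85.7% in CK at 6 weeks, while H3K4me3 stayed at 96.8 to 99.9% in all 4 lists. At chr1:134776044-134785383 it covered 65.9% in CKp25 against 79.3% in CK at 2 weeks and 52.2% in CKp25 against 92.8% in CK at 6 weeks. In all 3 domains H3K4me1 was lower as well, for example 37.1% in CKp25 against 57.7% in CK at 2 weeks and 43.1% in CKp25 against 73.1% in CK at 6 weeks at the domain on chromosome 1.

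Of the largest gains of H3K27ac share, chr4:130347781-130356466 is given above. At chr6:31069497-31077408 H3K27ac covered 74.3% in CKp25 against 21.9% in CK at 2 weeks and 54.5% in CKp25 against 27.8% in CK at 6 weeks. H4K20me1 covered that domain over its whole length in every list and H3K4me1 over 92.3 to 98.1%. At chr8:91558749-91571189 (12441 bp) H3K27ac covered 75.4% in CKp25 against 48.1% in CK at 2 weeks and 80.7% in CKp25 against 40.0% in CK at 6 weeks. This domain also held H3K27me3, over 70.2% in CKp25 against 67.1% in CK at 2 weeks and over 57.8% in CKp25 against 69.3% in CK at 6 weeks.

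Domains in which H3K4me3 and H3K27ac both moved by at least 10 points at both times were few. Such moves were not counted over all merged domains or the next 1000. The genotype differences of the 2 marks across the 1000 domains had a Spearman's rho of 0.10 at 2 weeks and 0.41 at 6 weeks. Both differences of a time share their extracts, and the CK H3K4me3 lists chose the domains. Both marks were lower in CKp25 by at least 10 points at both times in 6 domains and higher in 2. For single marks, 21 domains were lower and 10 higher in H3K4me3, and 51 lower and 41 higher in H3K27ac. The 6 lower ones lay between ranks 451 and 969, and the 2 higher ones were chr4:130347781-130356466 and chr11:49056400-49065622, given above. At chr10:33336349-33345707 H3K4me3 covered 84.6% in CKp25 against 95.2% in CK at 2 weeks and 67.1% in CKp25 against 86.9% in CK at 6 weeks. H3K27ac covered 10.5% of it in CKp25 against 31.6% in CK at 2 weeks and 15.6% in CKp25 against 33.0% in CK at 6 weeks. Across the 1000 domains the genotype difference of H3K27ac at 2 weeks and that at 6 weeks had a Spearman's rho of 0.34. These lists shared no sample, but each domain has the same width and base composition at both times.

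H3K4me1 covered about as much of these domains in both genotypes, at 47.2% of the bases in CKp25 against 49.97% in CK at 2 weeks and 49.1% in CKp25 against 48.4% in CK at 6 weeks. The next 1000 domains held less in every list, 43.0 to 46.4%. All domains but the 1000 broadest together held more in every list, 48.1 to 52.5%. At 2 weeks 604 domains were lower in CKp25 and 379 higher, and at 6 weeks 429 were lower and 553 higher. All merged domains had 23424 lower and 15568 higher at 2 weeks, and 20358 lower and 19225 higher at 6 weeks. The cover was halved in 82 of 972 domains at 2 weeks (20.8% of all) and in 61 of 967 at 6 weeks (18.5% of all), and doubled in 13 at 2 weeks (2.93% of all) and in 48 at 6 weeks (4.18% of all). The times pointed to opposite sides, as for H3K27ac, and the H3K4me1 lists covered 96.7 Mb in CKp25 against 104 Mb in CK at 2 weeks and 100.4 Mb in CKp25 against 103 Mb in CK at 6 weeks. From 2 to 6 weeks, 34 domains were halved and 49 doubled within CKp25, and 56 were halved and 12 doubled within CK. In each list H3K4me1 share and H3K27ac share went together across domains, with a Spearman's rho of 0.61 to 0.65 (n = 1000 domains of 1 list each, which share their width and extract).

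H4K20me1 differed most, in percentage points, between the broad domains and all others. It covered 53.3% of the bases in CKp25 against 55.5% in CK at 2 weeks, and 56.1% in CKp25 against 57.5% in CK at 6 weeks. The next 1000 domains held 44.5 to 48.4%, and all domains but the 1000 broadest 27.7 to 30.8%. In the broad domains 563 were lower in CKp25 and 378 higher at 2 weeks, and 512 were lower and 434 higher at 6 weeks. All merged domains had 9429 lower and 7144 higher at 2 weeks, but 8196 lower and 9009 higher at 6 weeks. The next 1000 also turned, with 505 lower and 360 higher at 2 weeks and 426 lower and 445 higher at 6 weeks. The cover was halved in 70 of 927 domains at 2 weeks (18.1% of all) and in 78 of 936 at 6 weeks (14.2% of all), 37 of them at both times. It was doubled in 16 domains at 2 weeks (3.43% of all) and in 32 at 6 weeks (4.58% of all). From 2 to 6 weeks, 32 were halved and 50 doubled within CKp25, and 21 were halved and 16 doubled within CK. The halvings were fewer than between genotypes, while the doublings within CKp25 were more. The lists covered 179 Mb of the autosomes in CKp25 against 203 Mb in CK at 2 weeks, and 196 Mb in CKp25 against 203 Mb in CK at 6 weeks. With the same number of peaks taken from each list, 54.3% of unequal domains were lower in CKp25 at 2 weeks, against 59.8% with all peaks past the limit.

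H3K36me3 reached into 644 domains in CKp25 against 640 in CK at 2 weeks and into 633 in CKp25 against 612 in CK at 6 weeks. It covered a small part of them, 16.2% of the bases in CKp25 against 15.8% in CK at 2 weeks and 14.8% in CKp25 against 13.7% in CK at 6 weeks. The widest 250 domains held more of it, with H3K36me3 in 188 to 200 of them over the 4 lists, against 121 to 127 of the narrowest 250. Its cover was halved in 89 of 640 domains at 2 weeks (22.5% of all) and in 115 of 612 at 6 weeks (22.9% of all). Of the broad domains with the mark these were 13.9% and 18.8%. The cover was doubled in 45 domains at 2 weeks and in 72 at 6 weeks. More domains were higher than lower in CKp25, with 374 higher and 326 lower at 2 weeks and 402 higher and 306 lower at 6 weeks. All merged domains had 4649 higher and 3421 lower at 2 weeks, and 4898 higher and 3079 lower at 6 weeks. The lists covered 159 Mb in CKp25 against 150 Mb in CK at 2 weeks, and 149 Mb in CKp25 against 138 Mb in CK at 6 weeks. From 2 to 6 weeks, 138 domains were halved and 36 doubled within CKp25, and 150 were halved and 18 doubled within CK.

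H3K9me3 was close to absent. It covered 0.0768% of the bases in CKp25 against 0.202% in CK at 2 weeks, and 0.218% in CKp25 against 0.201% in CK at 6 weeks, and in no list did it cover 50% of any domain. It touched 13 domains in CKp25 against 33 in CK at 2 weeks, and 37 in CKp25 against 28 in CK at 6 weeks. The cover was halved in 27 of 33 domains at 2 weeks (63.4% of all) and in 13 of 28 at 6 weeks (44.1% of all). It was found in CKp25 alone in 1 of 967 domains at 2 weeks (0.0790% of all) and in 21 of 972 at 6 weeks (0.246% of all). The list of CKp25 at 2 weeks was the shortest of the 4, at 7.60 Mb against 13.0 Mb in CK.

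**Figure D4:**
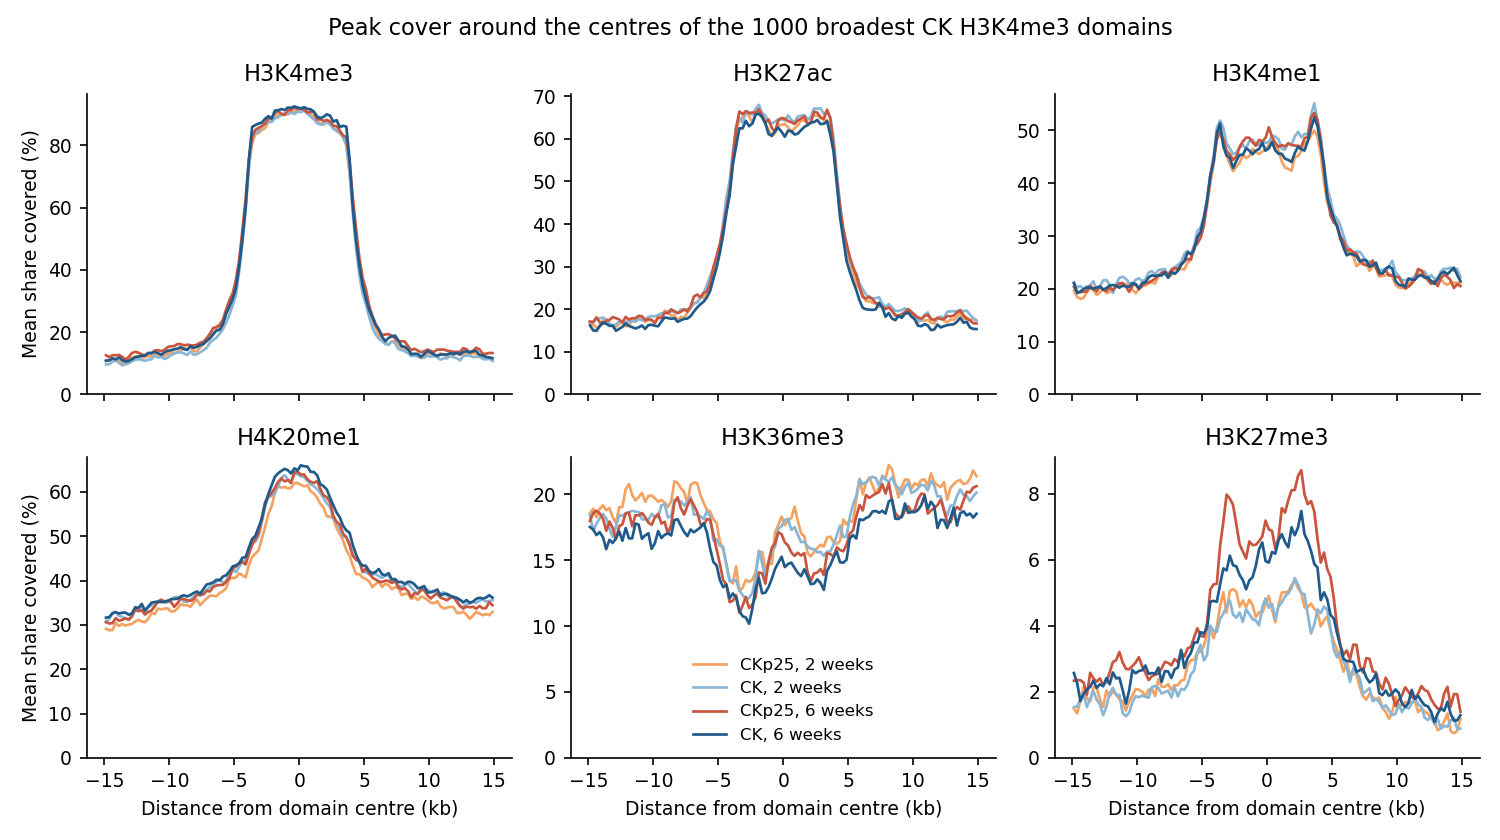
Mean share of the 1000 domains covered by peaks (%, y axis) against distance from the domain centre (kb, x axis, in bins of 250 bp, not oriented by gene direction), 1 line per peak list. H3K4me3 and H4K20me1 fall away from the centre, H3K27ac is about level across the domains and falls near their edges, H3K4me1 has shoulders near the domain edges, and H3K36me3 is lower at 4 to 5 kb than at 9 to 10 kb.

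The marks had their own shapes across a domain. Between 0 and 1 kb from the centre, H3K4me3 covered 90.8% in CKp25 against 90.4% in CK at 2 weeks and 91.4% in CKp25 against 92.1% in CK at 6 weeks. Between 9 and 10 kb it covered 13.0% in CKp25 against 12.6% in CK at 2 weeks and 14.9% in CKp25 against 13.8% in CK at 6 weeks. H3K27ac kept more outside the domains, at 18.6% in CKp25 against 19.05% in CK at 2 weeks and 18.7% in CKp25 against 17.7% in CK at 6 weeks over the same 9 to 10 kb. H4K20me1 spread furthest, with 34.8% in CKp25 against 36.9% in CK at 2 weeks and 36.2% in CKp25 against 37.1% in CK at 6 weeks. H3K36me3 had more cover outside than at the centre, 20.2% in CKp25 against 19.6% in CK at 9 to 10 kb at 2 weeks, and 17.6% in CKp25 against 17.2% in CK at 0 to 1 kb.

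H3K27me3 was confined to a minority of the broad domains and reached more of them in CKp25. It was found in 171 domains in CKp25 against 158 in CK at 2 weeks, and in 271 in CKp25 against 201 in CK at 6 weeks. It covered 4.88% of the bases in CKp25 against 4.72% in CK at 2 weeks, and 7.20% in CKp25 against 6.23% in CK at 6 weeks. Over the autosomes H3K27me3 peaks covered 17.5 Mb in CKp25 against 18.4 Mb in CK at 2 weeks, and 24.1 Mb in CKp25 against 27.8 Mb in CK at 6 weeks. At least 50% of the bases were covered in 38 domains in CKp25 against 37 in CK at 2 weeks, and in 48 in each genotype at 6 weeks, so the added domains held short stretches.

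Of the domains free of H3K27me3 in CK, 47 of 842 were covered in CKp25 at 2 weeks (1.85% of all such domains) and 95 of 799 at 6 weeks (3.02% of all). The reverse, cover in CK alone, was found in 34 domains at 2 weeks and in 25 at 6 weeks. Over all merged domains the counts were closer to even, with 935 covered in CKp25 alone and 1009 in CK alone at 2 weeks and 1486 in CKp25 alone and 1252 in CK alone at 6 weeks. The next 1000, which are nearest in width, gave 39 of 869 at 2 weeks and 68 of 814 at 6 weeks. The share among the 1000 broadest was 5.58% at 2 weeks and 11.9% at 6 weeks, against 4.49% and 8.35% in those next in width. With a -log10 p of at least 10 for a peak, the 1000 domains were chosen anew, and domains with only weaker CK peaks counted as free of the mark. The shares were then 0.857% at 2 weeks and 4.76% at 6 weeks. Of the domains counted above, 1 of the 47 and 8 of the 95 had a CKp25 peak at 10 or more. With the first choice of domains and the same number of peaks taken from each list, the shares were 5.90% at 2 weeks and 11.3% at 6 weeks. For scale, 117 domains were newly covered at 6 weeks against 2 weeks in CKp25 and 59 in CK.

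Where H3K27me3 was already present in CK, its cover was halved in CKp25 in 39 of 158 domains at 2 weeks (30.3% of all) and in 33 of 201 at 6 weeks (28.2% of all). It was doubled in 9 at 2 weeks (5.11% of all) and in 34 at 6 weeks (6.26% of all). At 6 weeks 196 domains were higher in CKp25 and 100 lower, and at 2 weeks 114 were higher and 91 lower. The next 1000 domains had 164 higher and 88 lower at 6 weeks and 99 higher and 71 lower at 2 weeks. All merged domains had 3147 higher and 3127 lower at 6 weeks, and 2162 higher and 2479 lower at 2 weeks. The share doubled at 6 weeks, 16.9%, stood beside 12.4% in the next 1000 domains.

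**Figure D5:**
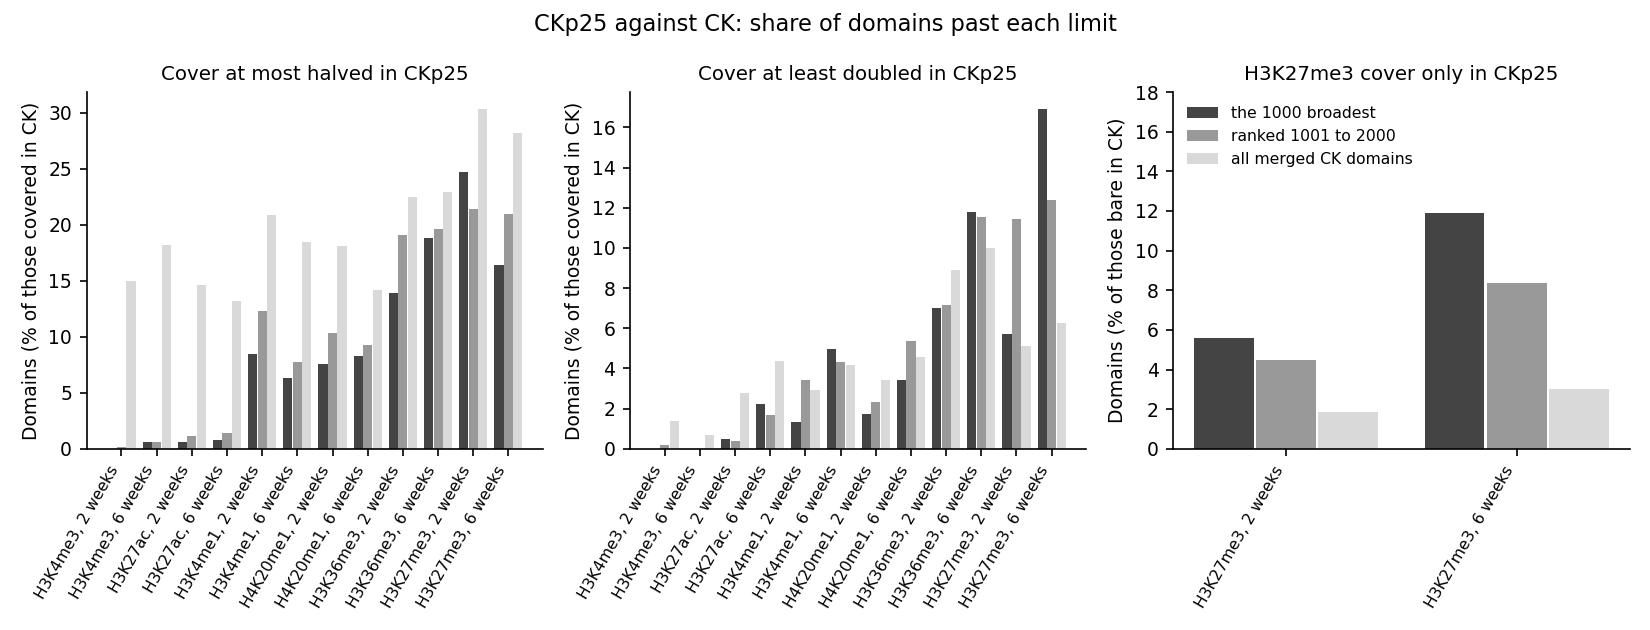
Share of domains (%, y axis) whose cover in CKp25 was at most 0.5 times (left) or at least 2 times (middle) that in CK, of those covered in CK, and with H3K27me3 in CKp25 alone, of those bare in CK (right), by mark and time (x axis). Dark bars are the 1000 broadest domains, mid grey bars the next 1000 domains and light bars all merged CK domains. The 1000 broadest had H3K27me3 in CKp25 alone in 5.58% at 2 weeks and in 11.9% at 6 weeks.

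The new H3K27me3 was thin. At 6 weeks it covered a median of 500 bp and at most 1756 bp of a domain, and the strongest peak in a domain had a median -log10 p of 6.58, with 8 of 95 at 10 or more. At 2 weeks the median was 416 bp and the median -log10 p 5.55, with 1 of 47 at 10 or more. In 42 of the 95 domains the CK list of the same time held a weaker H3K27me3 peak below the limit of 5, and in 25 of the 47 at 2 weeks. In 14 of the 95 domains the CKp25 list at 2 weeks held cover as well, and in 12 the CK list at 2 weeks did. There were 12 domains covered in CKp25 alone at both times.

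In the 95 domains the active marks were lower in CKp25 at 6 weeks. The median difference was -4.00 points in H3K4me3, against -0.702 points in the other broad domains. It was -3.63 points in H3K27ac, against 1.79 points in the others, and -1.93 points in H3K4me1, against 1.71 points. In the 47 domains at 2 weeks the median differences were -2.96 points in H3K4me3 and -5.48 points in H3K27ac, against 0.197 and -1.02 points in the others. All marks of a genotype and time were called against 1 extract, which these differences share. Even so the 95 domains kept most of their H3K4me3, with a median cover of 87.6% in CKp25, and a median H3K27ac cover of 56.7%.

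The largest gains of H3K27me3 share were domains with H3K27ac over much of their length. At chr14:70473878-70481475 H3K27me3 covered 29.8% in CKp25 against 0% in CK at 2 weeks and 53.1% in CKp25 against 31.1% in CK at 6 weeks. H3K27ac there was 67.5% in CKp25 against 74.3% in CK at 2 weeks and 65.6% in CKp25 against 75.3% in CK at 6 weeks. At chr9:20833573-20843269 H3K27me3 covered 17.1% in CKp25 against 0% in CK at 2 weeks and 48.6% in CKp25 against 16.0% in CK at 6 weeks, with H3K27ac over 75.5 to 84.5%. At chr1:75441319-75449801 it covered 47.0% in CKp25 against 27.6% in CK at 2 weeks and 66.3% in CKp25 against 41.9% in CK at 6 weeks. H3K27ac, H3K4me1 and, at 6 weeks, H3K4me3 were lower in CKp25 at that domain, for example H3K4me3 at 66.1% in CKp25 against 86.6% in CK at 6 weeks.

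The largest falls of H3K27me3 share went the other way. At chr4:134822366-134829845 H3K27me3 covered 0% in CKp25 against 20.1% in CK at 2 weeks and 3.66% in CKp25 against 27.8% in CK at 6 weeks. H3K27ac was higher there, 54.1% in CKp25 against 49.0% in CK at 2 weeks and 68.5% in CKp25 against 46.1% in CK at 6 weeks. At chr17:84580800-84588645 H3K27me3 covered 13.7% in CKp25 against 31.1% in CK at 2 weeks and 16.2% in CKp25 against 36.8% in CK at 6 weeks, and H3K27ac 79.7% in CKp25 against 73.4% in CK at 2 weeks and 83.6% in CKp25 against 68.7% in CK at 6 weeks. At chr6:144149871-144159471 H3K27me3 covered 30.2% in CKp25 against 50.5% in CK at 2 weeks and 39.4% in CKp25 against 49.0% in CK at 6 weeks. At all 3, H3K27me3 was lower and H3K27ac higher in CKp25 at both times.

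Sorting the 1000 domains by H3K27me3, which the choice did not use, gave classes with different company. In 33 domains H3K27me3 covered at least 50% of the bases in all 4 lists, in 273 it was found in some list, and in 694 in none. The 33 were as fully covered by H3K4me3 as the rest, with medians of 87.2 to 92.2%, but held less of the active marks. Their median H3K27ac share was 23.96% in CKp25 against 23.02% in CK at 2 weeks and 35.2% in CKp25 against 15.1% in CK at 6 weeks. In the 694 without H3K27me3 it was 68.8% in CKp25 against 70.0% in CK at 2 weeks and 70.5% in CKp25 against 67.6% in CK at 6 weeks. The median H3K36me3 share of the 33 was 0% in every list, and their median H4K20me1 share 12.7 to 16.9%, against 69.4 to 72.0% in the 694.

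At 6 weeks the active marks were higher in CKp25 in these 33 domains. H3K27ac covered 37.7% of their bases in CKp25 against 27.5% in CK, and 22 domains were higher and 7 lower. H3K4me1 covered 21.3% in CKp25 against 13.9% in CK, with 28 higher and 5 lower. H3K4me3 covered 90.8% in CKp25 against 86.7% in CK, with 23 higher and 10 lower. At 2 weeks the genotypes were closer, with H3K27ac at 33.9% in CKp25 against 32.7% in CK and H3K4me1 at 17.8% in CKp25 against 16.1% in CK. Between times H3K27ac in the 33 was higher at 6 than at 2 weeks in 19 domains and lower in 12 within CKp25, and higher in 6 and lower in 22 within CK.

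The same sign of H3K27ac was seen in 27 domains of the same class among the next 1000, where H3K27ac covered 44.3% in CKp25 against 36.3% in CK at 6 weeks, with 20 higher and 7 lower. In 1611 narrower domains of the class, H3K27ac covered 23.4% in CKp25 against 15.3% in CK at 6 weeks, with 467 higher and 163 lower, and H3K4me1 was higher in 800 and lower in 533. Both marks thus differed in the same direction in narrower domains. H3K4me3 was higher in 12 and lower in 12 of the 27, and higher in 728 and lower in 689 of the 1611. In the 694 broad domains without H3K27me3, H3K27ac covered 67.8% in CKp25 against 65.3% in CK at 6 weeks, with 420 higher and 274 lower. The H3K27me3 class was formed after the values were seen. With the same number of peaks taken from each list, H3K27ac in the 33 was at 36.0% in CKp25 against 27.5% in CK at 6 weeks. With a -log10 p of at least 10 for cover it was at 23.0% in CKp25 against 14.8% in CK, while H3K4me1 was then at 3.93% in CKp25 against 4.06% in CK, with 7 domains higher and 7 lower.

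Among the 33, chr13:31892591-31908046 (15456 bp) had H3K27ac over 25.9% in CKp25 against 18.2% in CK at 2 weeks and over 35.7% in CKp25 against 5.55% in CK at 6 weeks. At chr2:105508580-105523552 (14973 bp) it covered 22.6% in CKp25 against 18.8% in CK at 2 weeks and 37.0% in CKp25 against 5.23% in CK at 6 weeks. At chr4:109649461-109657908 (8448 bp) it covered 22.4% in CKp25 against 8.06% in CK at 2 weeks and 38.1% in CKp25 against 0% in CK at 6 weeks. These 3, named after their values were seen, were high in CKp25 at 6 weeks and low in CK at 6 weeks, and H3K27me3 covered 67.5 to 96.8% of each in all 4 lists. In the other direction, chr5:98608509-98619288 had H3K27ac over 42.7% in CKp25 against 42.3% in CK at 2 weeks and over 27.5% in CKp25 against 51.7% in CK at 6 weeks.

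Combinations of marks were counted in each list. Both H3K27ac and H3K4me1 covered at least 50% of 450 domains in CKp25 against 480 in CK at 2 weeks, and of 457 in CKp25 against 432 in CK at 6 weeks. H3K27ac, H3K4me1 and H4K20me1 all did so in 344 domains in CKp25 against 370 in CK at 2 weeks, and in 371 in CKp25 against 352 in CK at 6 weeks. None of H3K27ac, H3K4me1, H4K20me1 and H3K27me3 did so in 122 domains in CKp25 against 95 in CK at 2 weeks, and in 115 in CKp25 against 94 in CK at 6 weeks. This last count was higher in CKp25 at both times. Combinations were not counted over all merged domains or those next in width. A list that covers less can leave more domains below 50%. At 2 weeks the CKp25 list of each of these marks covered fewer bases than the CK list. At 6 weeks this held for H3K4me1, H4K20me1 and H3K27me3, while the H3K27ac list was larger in CKp25. The part of list size in this count was not tested. Both H3K27ac and H3K27me3 covered at least 50% of 11 domains in CKp25 against 8 in CK at 2 weeks, and of 15 in CKp25 against 12 in CK at 6 weeks.

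Breadth in H3K4me3 went only in part with breadth in the other marks. The same rule on the CK lists of another mark gave 1000 widest domains of that mark, and 341 (34.1%) of the broad H3K4me3 domains met one of H3K27ac, while 331 (33.1%) of those met a broad H3K4me3 domain. For H3K4me1, 304 (30.4%) of the H3K4me3 domains and 290 (29.0%) of the H3K4me1 domains met, for H4K20me1 223 (22.3%) and 199 (19.9%), for H3K27me3 50 (5.00%) and 53 (5.30%), and for H3K36me3 37 (3.70%) and 34 (3.40%). The next 1000 domains met the broad H3K27ac domains in 99 cases, against 341 for the broad ones. They met those of H3K4me1 in 122 cases against 304 and those of H4K20me1 in 170 against 223. For H3K27me3 the cases were 33 against 50, and for H3K36me3 25 against 37. The part of domain width in these counts was not tested.

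Peak strength, the authors' fold enrichment over extract, was read within each list. A member's strongest H3K4me3 peak had a median percentile among all peaks of its list of 90.0 in CKp25 against 89.4 in CK at 2 weeks, and of 89.7 in CKp25 against 90.4 in CK at 6 weeks. For H3K27ac the median was 94.6 in CKp25 against 95.5 in CK at 2 weeks and 94.6 in CKp25 against 94.9 in CK at 6 weeks. The single peaks that make up a domain were less strong, with a median percentile for H3K4me3 of 58.7 in CKp25 against 53.9 in CK at 2 weeks and of 63.6 in CKp25 against 58.5 in CK at 6 weeks. The peaks of the next 1000 domains stood at 70.4 in CKp25 against 65.9 in CK at 2 weeks and at 74.5 in CKp25 against 68.3 in CK at 6 weeks, above the broad domains in every list. For H3K27me3 the strongest peak of a covered member stood at a median percentile of 80.4 in CKp25 against 81.5 in CK at 2 weeks and of 80.1 in CKp25 against 81.4 in CK at 6 weeks. For H3K36me3 it stood at 67.9 to 68.4 over the 4 lists.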

How the data were processed

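Peak lists of 7 histone marks and RNA counts were taken as deposited. The builds NCBIM37 and mm9 and the tools MACS2, HTSeq 0.6.1, Picard and Bowtie are named, per the submitters' processing notes. The deposited lists give each peak's fold enrichment over whole cell extract and the -log10 of its p-value. Their q-value column is -1 throughout. No read depth is given for the lists, so no interval for counting error was computed. Folds and -log10 p were used to filter or rank peaks within a list. The RNA table holds deposited counts per gene, and entries that name no gene, 60.0 to 63.6% of a library's total, were left out.

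Peaks with a -log10 p of at least 5 were merged, and the bases of a domain they cover were counted (Python 3.11.15, pandas 2.3.3), after a check on simulated intervals. Cover at most 0.5 times or at least 2 times that in CK was counted, of domains covered in CK. A longer or deeper list covers more of any region. CPM are counts scaled to a library's gene total (R 4.3.3, with edgeR 4.0.16 for scaled library sizes). Named domains were the 10 widest and the 3 largest falls and gains of H3K4me3, H3K27ac and H3K27me3. The domains, lists and measures were chosen with earlier results of these data known.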

Additional observations from a re-analysis of the deposited data

Results flagged for a closer look

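The genotype difference pointed to opposite sides at 2 and 6 weeks for 3 marks, and with 1 list per group the change between times was not tested. For H3K27ac, the share of bases covered, CKp25 minus CK, was -1.58 points at 2 weeks and 1.93 points at 6 weeks, a change of 3.51 points. For H3K4me1 it was -2.74 points at 2 weeks and 0.753 points at 6 weeks, a change of 3.49 points. For H3K9me3 it was -0.125 points at 2 weeks and 0.0175 points at 6 weeks, a change of 0.143 points.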

How the results depend on the processing

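Values below are the percent of domains lower in CKp25, of those that differed, unless said otherwise. H3K4me3 at 2 weeks was 49.7%, and became 54.6% with the same number of peaks per list, 41.8% with merging within 3 kb, 41.7% with domains chosen from CK at 6 weeks alone and 70.7% from CK at 2 weeks alone. At 6 weeks it was 56.0%, and became 60.8% with a -log10 p of at least 10, 67.1% chosen from CK at 6 weeks alone, and turned to 49.6% with merging within 3 kb and 48.2% chosen from CK at 2 weeks alone. A list that helps choose the domains has more cover in them by construction. With domains chosen from the other CK list, 41.7% at 2 weeks became 46.2% with equal peak numbers and 34.7% with 3 kb, and 48.2% at 6 weeks became 51.9% with merging within 0.5 kb. The limit of 10 on -log10 p applied to the choice of domains and to the cover in both genotypes. With it, H3K27ac at 2 weeks became 51.9% and H3K36me3 51.3%, and H3K27me3 newly covered domains 0.857% at 2 weeks and 4.76% at 6 weeks. With all deposited peaks, H3K4me1 became 55.8% and H3K36me3 40.4% at 2 weeks. With equal peak numbers, H3K27ac became 47.1% at 6 weeks, H3K4me1 58.0% and H4K20me1 54.3% at 2 weeks, and H3K36me3 47.0% at 6 weeks. With 3 kb, H3K27ac became 36.9% and H4K20me1 50.5% at 6 weeks, and H3K36me3 42.4% at 2 weeks. The cause of these shifts was not tested. Ranking by -log10 p put 71.4% of CKp25 and 69.5% of CK H3K27ac peaks of the domains at 6 weeks in the upper 50% of their list, against 72.7% and 71.0% by fold. The neuronal marker sum of CK at 2 weeks became 5509 CPM with scaled library sizes. The other 113 values of the main comparisons stayed within the 95% binomial (Clopper-Pearson) interval of the value reported or, for RNA, within 1 SD. That interval treats the domains of 1 pair of lists as independent, and the settings reuse the same lists. It served only as a yardstick for a shift and does not measure how replicate lists would differ. The remaining values were the shares of domains halved or doubled for each mark and time, and the values of the 33 domains of the H3K27me3 class. Of these, 59 moved beyond the interval and 233 did not. Among the 59, 18 moved with a fold limit of 1.5 in place of 2, and 15 with a -log10 p of at least 10. Spans, contrasts between times, paired moves of marks and the H3K27me3 class were added after seeing the data. The q-value alternative was not run, since that column is -1 throughout. No paired analysis was possible because the cover values come from no test and the labels number no replicates; the times stand side by side instead. The lack of replicates and of read depth limits every comparison of lists.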
